A study of Mus musculus with 19 samples.

Results

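Granins and the enzymes that process neuropeptides were followed through the cells of the mouse medial amygdala. The members were the rows of 8 genes, Chga, Chgb, Scg2, Scg3, Pcsk2, Scg5, Pcsk1n and Cpe, chosen by name, out of 16233 genes in a table of 20679 cells and 15299 genes in a table of 8071 cells that compares dissociations. All 8 were present in both tables. Single cells were profiled by Drop-seq, in which each captured transcript carries a molecular tag (UMI) and is counted once, from male C57BL/6J mice of 8 or 9 weeks. With Act-Seq, a dissociation protocol made to limit transcription while tissue is taken apart, 2 libraries came from seizure-affected mice, 4 from mice acutely stressed by immobilization, 4 from mice acutely exposed to odors, 6 from naive mice and 1 from saline-injected mice. With a conventional dissociation, 1 library came from seizure-affected and 1 from saline-injected mice. The labels give neither the number of mice in a library nor whether replicate libraries held different mice; each p-value therefore reflects library-to-library spread, part of which may be technical. The agent that caused the seizures and the odors used are not named in the labels. The odor libraries, per the labels, served the authors for cell typing. On mm10 the members lie at chr12:102554969-102565028 (Chga, plus strand), chr2:132781278-132795079 (Chgb, plus), chr1:79434669-79440120 (Scg2, minus), chr9:75643189-75684056 (Scg3, minus), chr2:143546156-143816285 (Pcsk2, plus), chr2:113776362-113829121 (Scg5, minus), chrX:7919822-7924410 (Pcsk1n, plus) and chr8:64592542-64693054 (Cpe, minus).

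Granins (chromogranin A, chromogranin B, secretogranin II and secretogranin III, made from Chga, Chgb, Scg2 and Scg3) are acidic proteins that condense with peptide hormones in the trans-Golgi network and are stored in dense core vesicles. Inside these vesicles prohormone convertases such as Pcsk2 cut precursors after pairs of basic residues, and carboxypeptidase E, made from Cpe, trims the basic residues left at the cut ends. Scg5, or 7B2, is the chaperone that Pcsk2 needs to become active, and Pcsk1n makes proSAAS, an inhibitor of the related convertase made from Pcsk1. In the amygdala these genes are best known from neurons that release somatostatin, neuropeptide Y, enkephalin and other peptides; astrocytes also release granin-containing vesicles.

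A cAMP response element is known upstream of several granin genes, so the 250 bases before the RefSeq transcription start (build GRCm38.p6) were searched on both strands for TGACGTCA, and for its core TGACG, which the longer motif contains. RefSeq gave a promoter for 7 members; Cpe was not among them. The core was found for 6 of the 7, against 17.8% of all 32851 mouse promoters of that length, and the whole element for Scg2 and Chgb, against 1.55% of promoters. The stretches that hold the matches are given with the match in capitals, because they are what these members share outside their counts; positions are counted back from the base before the start.
Chga, chr12:102554886-102554915, plus strand, match at -44: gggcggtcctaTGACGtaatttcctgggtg
Chgb, chr2:132781559-132781588, plus strand, match at -72: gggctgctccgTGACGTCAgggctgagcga
Scg2, chr1:79440076-79440105, minus strand, match at -68: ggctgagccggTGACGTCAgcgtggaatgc
Scg3, chr9:75684068-75684097, minus strand, match at -30: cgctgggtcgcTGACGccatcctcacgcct
Scg5, chr2:113829248-113829277, minus strand, match at -175: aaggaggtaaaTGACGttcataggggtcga
Pcsk2, chr2:143546088-143546117, plus strand, match to the other strand at -34: tggcgggcgcgCGTCAcccgggctggcgct
The window of Pcsk1n held no match. The mm10 gene spans given in the opening begin further upstream than the RefSeq starts of Chgb and Scg2. By those spans, the stretches with the whole element lie inside both genes, not before them. The stretches of the other members lie before their spans. These are matches of letters, and no file here measured binding at them.

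The Act-Seq libraries held 43 to 2189 cells and 116492 to 3723521 UMIs (median per cell 1222), and the 5 libraries of the dissociation table held 2102364 to 4309887 UMIs. The smallest library, naive 6, entered no class, and odor 4 gave too few neurons to be used for them. Of the 2900 cells of seizure 1 and seizure 2 in the dissociation table, all 2900 had the same counts as a cell of the same library in the table of all cells, and 0 had the same barcode; 1115 barcodes stood under both the conventional saline library and seizure 1. Libraries in the dissociation table were therefore taken from the cell names, and the barcodes were not used to join cells. The authors' classes were used in the table of all cells. The neurons are the 2444 cells of the authors' 16 neuron clusters, N1 to N16. Of these cells 2293 were in the authors' neuron class, and 151 were named as another class among all cells. A further 6206 cells of the authors' neuron class lie outside these clusters.

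The markers of these cells went against the name neuron in most clusters. In 14 of the 16 clusters the astrocyte glutamate transporter Slc1a2 was at 3960 to 5929 UMIs per 1000000 (CPM) and the neuronal RNA Meg3 at 136 to 541 CPM. In cluster N9, 117 cells, Meg3 stood at 10547 CPM and Slc1a2 at 994 CPM, and in N12, 103 cells, Meg3 stood at 61706 CPM and Slc1a2 at 935 CPM. Over the 14 libraries used, the summed level of 8 astrocyte markers in neurons ranged from 7198 to 12804 CPM and that of 10 neuron markers from 2157 to 17462 CPM. Levels given for neurons are those of cells so composed, and N9 and N12 are also given apart.

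Chga and Chgb were detected in the authors' neuron class, inside and outside the clusters, and in oligodendrocyte precursors, and had lower medians in the other glia and in vascular cells. Chga, a granin that drives vesicle formation in endocrine cells, was at 47.1 CPM in the lowest, 75.5 in the median and 162 in the highest of the 14 libraries with neurons, and at 55.2, 123 and 213 CPM in the 15 libraries with precursors. The ranges of neurons and precursors overlapped, with the higher median in precursors. In astrocytes Chga stayed between 0 and 14.6 CPM, and in the mural cells of 12 libraries no UMI was seen among 417800, which allows up to 7.18 CPM. Chgb, the second classic chromogranin, was at 168, 206 and 681 CPM (lowest, median, highest) in neurons and at 78.0, 103 and 213 CPM in precursors, against 5.64 to 48.1 CPM in astrocytes. The neuron class outside the clusters had medians of 67.4 CPM of Chga and 177 CPM of Chgb. No library of astrocytes reached the lowest library of neurons or precursors for either gene.

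Scg2 and Scg3 differed in where they were high. Scg2, the source of secretoneurin, was at 230.2, 309.9 and 1193 CPM in neurons and at 16.9, 38.7 and 67.0 CPM in astrocytes. Precursors, in which Chga and Chgb were high, had 0, 8.26 and 79.7 CPM of Scg2, so that no precursor library reached the lowest neuron library. Scg3, which binds chromogranin A and anchors it to the vesicle membrane, was at 1190.2, 1354 and 1540 CPM in astrocytes and at 383, 733 and 1028 CPM in neurons. Every astrocyte library was above every neuron library for Scg3. In precursors Scg3 was at 156, 289 and 629 CPM, and in oligodendrocytes at 0, 119.8 and 254 CPM.

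Among the authors' classes, the convertase and its chaperone had their highest medians in oligodendrocyte precursors. Not every neuron cluster lay below them. With counts pooled over cells, N9 had 166 CPM of Pcsk2 and 759 CPM of Scg5, against 102 and 289 CPM in precursors. N12 had 90.6 and 313 CPM. Pcsk2 was at 60.02, 95.8 and 161 CPM in precursors and at 0, 44.1 and 85.6 CPM in neurons, with overlapping ranges, against at most 16.9 CPM in oligodendrocytes and 13.4 CPM in astrocytes. Scg5 was at 180.3, 265 and 426 CPM in precursors and at 105, 156 and 341 CPM in neurons. Astrocytes, at 78.0 to 129.7 CPM, and oligodendrocytes, at 31.3 to 149 CPM, also held Scg5, whereas Pcsk2 was close to 0 in both. Pcsk1n was at 1235, 2045 and 2635 CPM in neurons, 719, 1022 and 1353 CPM in precursors, 321 to 657 CPM in astrocytes and 357 to 596 CPM in oligodendrocytes. The neuron and precursor ranges overlapped, and both lay above those of astrocytes and oligodendrocytes.

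Cpe was present in every class. It was at 5622, 8026 and 9715 CPM in neurons, at 3417, 4556 and 5567 CPM in astrocytes and at 734, 1000.0 and 2052 CPM in precursors. The ranges of neurons, astrocytes and precursors did not overlap. Clusters N9 and N12 did not follow this order: over pooled cells they had 3824 and 3044 CPM, below the astrocyte median. Oligodendrocytes, microglia, endothelial and mural cells lay between 44.0 and 1523 CPM, with medians of 819, 497, 613 and 589 CPM. The 6201 cells of the authors' neuron class outside the clusters, in 15 libraries, had mean levels of 8290 ± 617 CPM for Cpe (SD, n = 15) and 305 ± 149 CPM for Scg2, against 7983 ± 1210 and 434 ± 298 CPM in neurons (SD, n = 14). All these levels are descriptions and carry no test, and free RNA in the droplets can add to each of them. The exons of Pcsk1n overlap Eras and those of Pcsk2 overlap Pcsk2os1 and Pcsk2os2 on the other strand; the labels do not say whether strand was used in counting, so those pairs cannot be told apart.

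**Figure D1:**
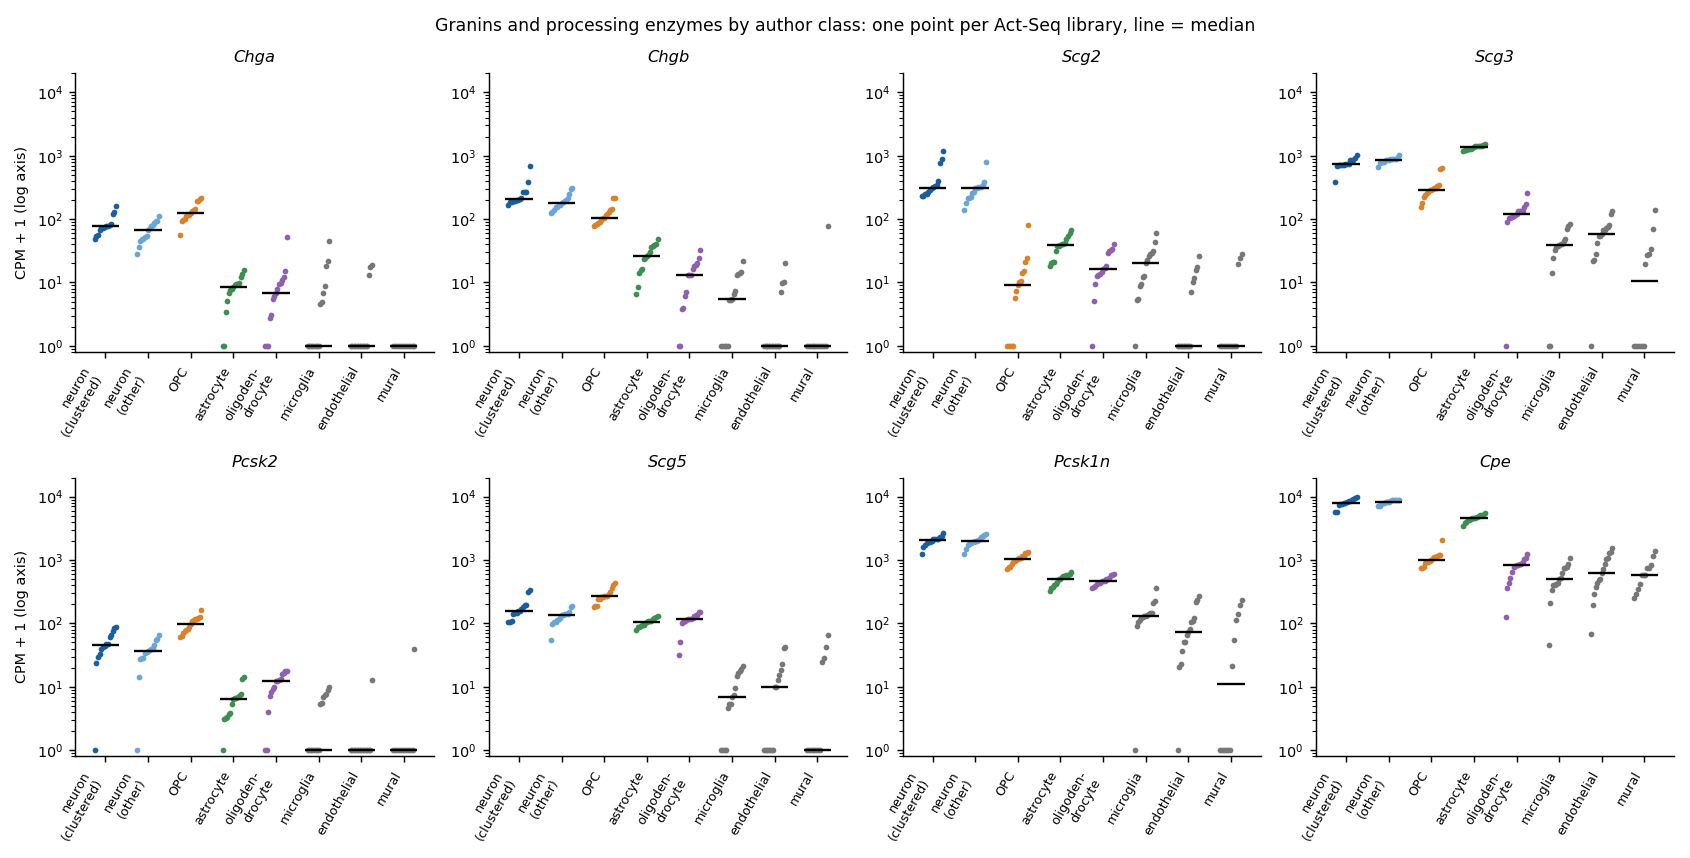
Level of each member by author class in the table of all cells; the vertical axis is CPM + 1 on a log axis, each point is 1 Act-Seq library with at least 10 cells of the class, and the line is the median. Scg2 medians are 309.9 CPM in neurons and 8.26 CPM in oligodendrocyte precursors (OPC), while Chga medians are 75.5 and 123 CPM.

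Depth differed between classes, so the share of cells with at least 1 UMI was also taken after each cell was thinned to 600 UMIs. For Chga the share was 7.42% of 822 precursors (exact binomial 95% interval 5.72% to 9.43%) and 3.52% of 2444 neurons (2.82% to 4.33%), against 0.31% of 5807 astrocytes (0.184% to 0.489%). For Pcsk2 it was 8.27% of precursors (6.48% to 10.4%) and 2.95% of neurons (2.31% to 3.70%), against 0.207% of astrocytes. For Scg5 it was 17.3% of precursors, 7.82% of neurons and 5.03% of astrocytes. Scg2 ran the other way, with 0.608% of precursors (0.198% to 1.41%), 14.6% of neurons and 1.38% of astrocytes. Without thinning, the Chga shares were 21.3% of precursors, 12.9% of neurons and 1.27% of astrocytes. The Scg2 interval of precursors overlapped those of astrocytes (1.09% to 1.71%) and of endothelial cells, at 0.336% (0.0694% to 0.98%), and free RNA was not measured apart. Intervals cover counting error only.

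The precursor class was then divided by its defining receptor, a division chosen after the levels had been seen. Of the 822 cells, 656 had a Pdgfra UMI, with a median of 1783 UMIs in all, and 166 had none, with a median of 2537. Bmp4, a gene of precursors that are committing to become oligodendrocytes, gave 0 UMIs in the cells with Pdgfra, which allows up to 2.36 CPM, and 679 CPM in the cells without. Chga was at 191 CPM (exact Poisson 95% interval 168 to 217) in cells with a Pdgfra UMI and at 19.4 CPM (9.71 to 34.8) in cells without. Pcsk2 was at 130.02 CPM in cells with Pdgfra and 38.9 CPM in cells without, Chgb at 151 with and 35.4 CPM without, Pcsk1n at 1305 with and 442 CPM without, and Scg5 at 341 with and 173 CPM without. In the 12 libraries with at least 5 cells on each side, Chga, Pcsk2 and Pcsk1n were higher in the cells with Pdgfra in 12 of 12, and Chgb, Scg3, Scg5 and Cpe in 11 of 12. Scg2 was higher in 6 of 12. The neuronal RNAs Snap25 and Meg3 moved the same way, at 151 and 990.5 CPM in the cells with Pdgfra and 14.1 and 166 CPM in the cells without; the part of neuronal RNA in these levels was not tested.

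**Figure D2:**
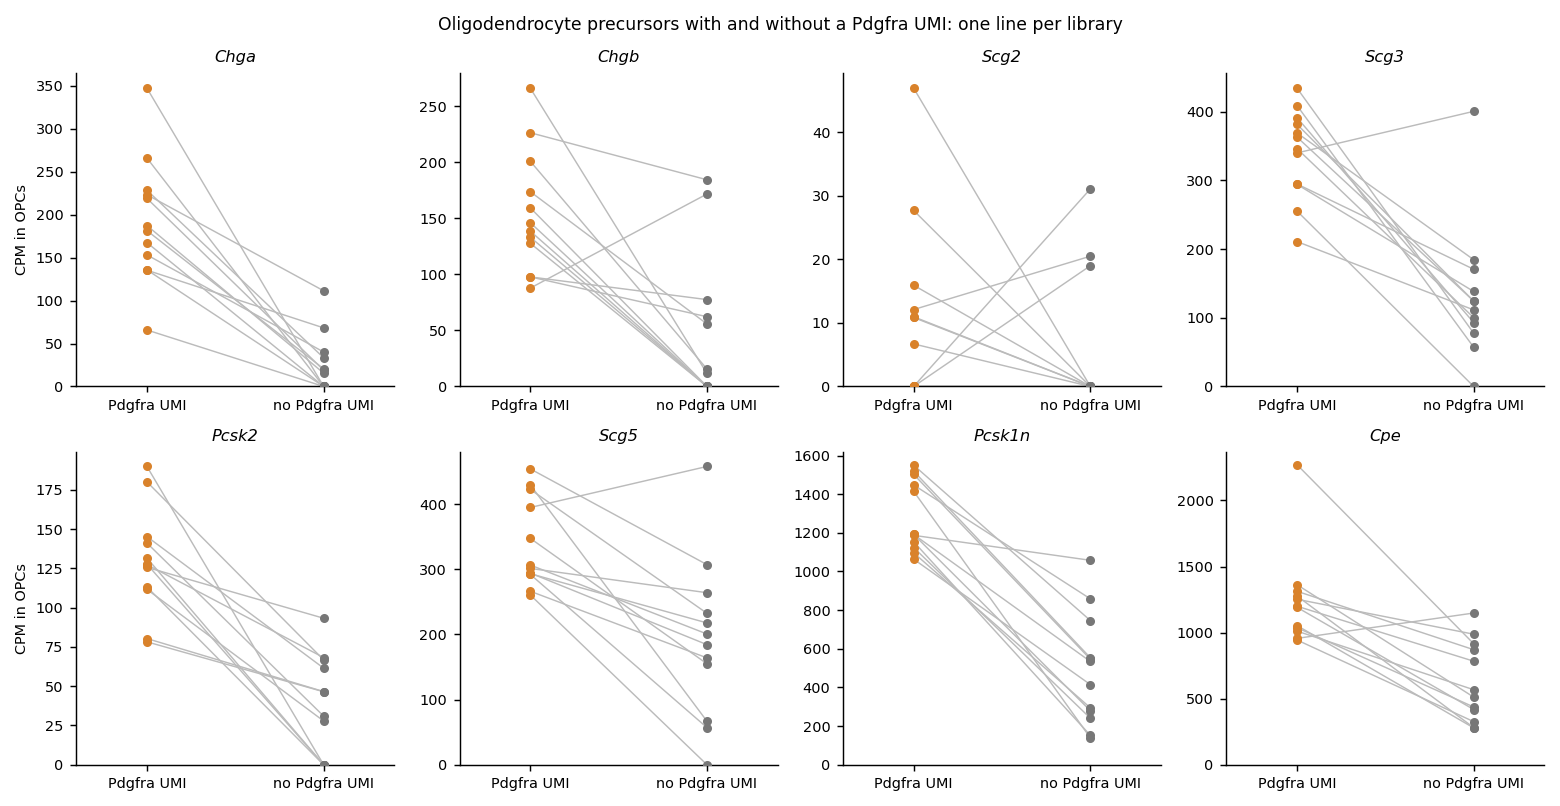
CPM of each member in oligodendrocyte precursors with a Pdgfra UMI (left) and with none (right) in 12 Act-Seq libraries, joined by a line per library. Chga, Pcsk2 and Pcsk1n lines fall to the right in 12 of 12 libraries, while Scg2 is low on both sides.

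Across the 16 neuron clusters, most members separated N9 and N12 from the rest. N9, called glutamatergic from its transporter genes, had 1147 CPM of Chgb, 759 CPM of Scg5, 268 CPM of Chga and 166 CPM of Pcsk2, with counts pooled over its cells. The other 14 clusters had 73.8 to 232 CPM of Chgb, 73.8 to 175 CPM of Scg5, 10.4 to 101 CPM of Chga and 19.7 to 110.1 CPM of Pcsk2. N12, called GABAergic, had 416, 313, 297 and 90.6 CPM of the same genes. Its Pcsk2 level lay inside the range of the 14 clusters, and the other levels of N9 and N12 lay above it. Scg2 reached 1240 CPM in N12 and 802 CPM in N9, against 68.9 to 494 CPM elsewhere. Among the 14 clusters Scg2 was at 407 CPM or more in N1 to N4 and at 68.9 to 132 CPM in N5, N6, N8 and N15.

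Cpe was lower in N9 and N12 than in every other cluster, and Scg3 was lowest in N12. Cpe was at 3824 CPM in N9 and 3044 CPM in N12, against 7180 to 10261 CPM in the other 14 clusters, and Scg3 was at 643 CPM in N9 and 231 CPM in N12, against 590 to 974 CPM. Pcsk1n was at 2144 CPM in N9, inside the range of 1717 to 2360 CPM of the others, and at 1438 CPM in N12, below it. The astrocyte marker Slc1a2 was also lower in N9 and N12 than in the other clusters, and its part in these levels was not tested. In the thinned cells of N9 and N12, Chgb was seen in 29.1% of 220 cells (23.2% to 35.6%) and Scg2 in 25.5% (19.8% to 31.7%), and Cpe in 67.7%, against 95.3% of all clustered neurons.

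On log2(CPM + 10) over the 16 clusters, Scg5 and Chgb were the most alike pair of members, with a Pearson correlation of 0.94, and Cpe and Scg3 followed each other at 0.83. Cpe had negative correlations with Scg5 (-0.85), Chgb (-0.79), Chga (-0.73), Pcsk2 (-0.71) and Scg2 (-0.70). Among 3864 genes with a mean of at least 50 CPM, the 3 most like Cpe were Gpm6b (0.99), Kif5a (0.98) and S100b (0.97), and Nfia and Id4 (0.96 each) were among the 3 most like Scg3. Scg5 was most like Rtn1, Caly and Cd200 (0.96 each), and Chgb like Caly (0.96), Scg5 (0.94) and Srpk2 (0.92); Snap25 (0.90) and App (0.89) were among the 3 most like Pcsk2. Scg2 followed B3gnt1 (0.85), Tmem179 (0.84) and Atp2b1 (0.83), Chga followed Spock2 (0.88), Usp34 (0.86) and Hnrnpl (0.86), and Pcsk1n followed Dynll2 (0.87), Srp9 (0.86) and Rfk (0.85). The clusters share the same libraries and are 16 points, of which N9 and N12 stand apart, so these values are descriptions.

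**Figure D3:**
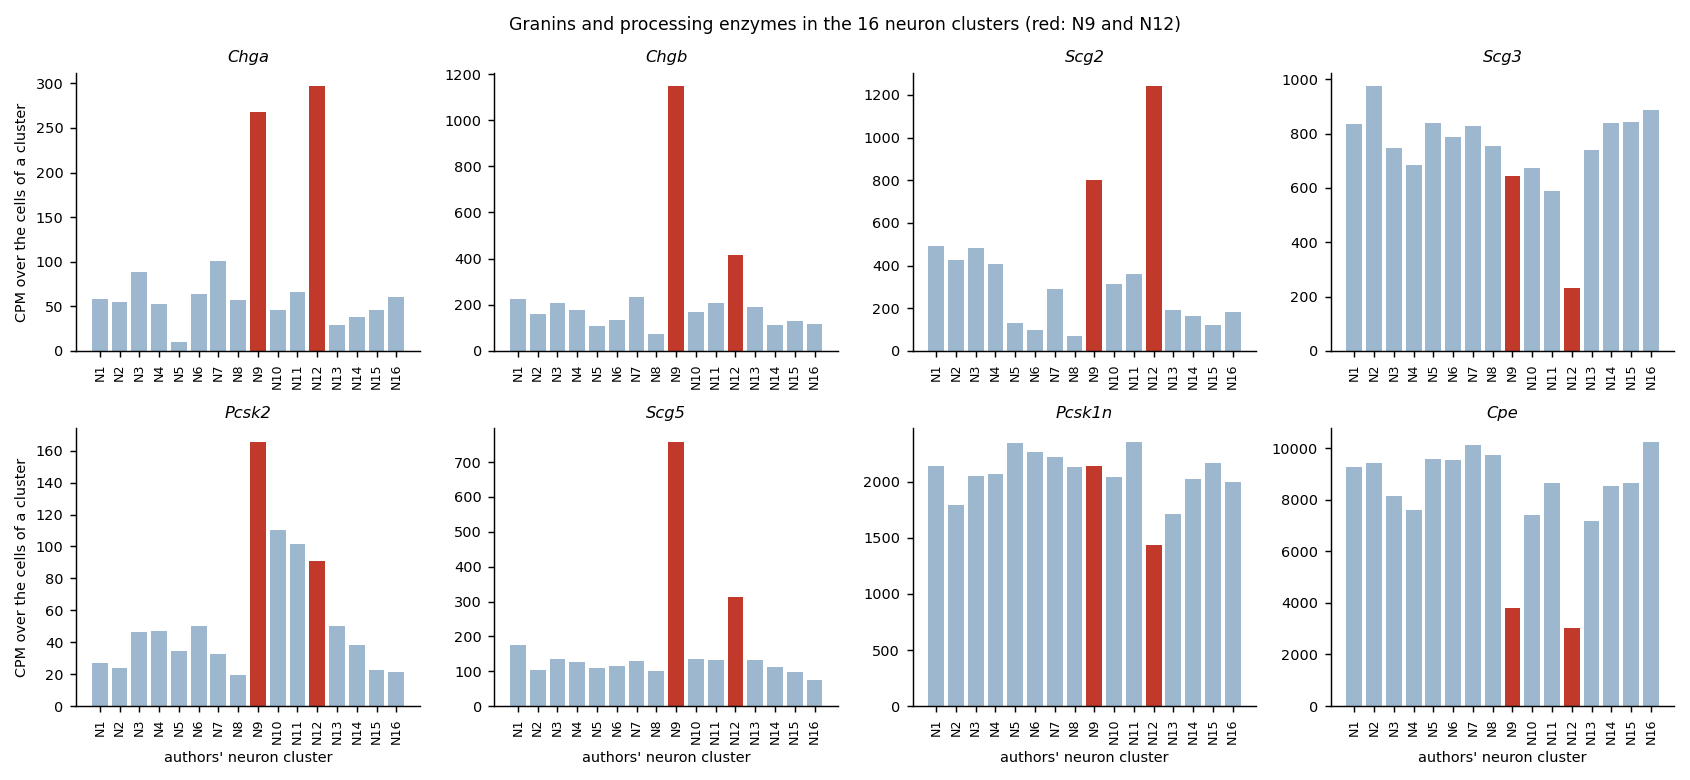
CPM of each member over the pooled cells of each of the authors' 16 neuron clusters, on linear axes from 0, with N9 and N12 in red. Chgb peaks at 1147 CPM in N9 and Scg2 at 1240 CPM in N12, whereas Cpe is lowest there, at 3824 and 3044 CPM.

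The study asked which cells respond to seizure and to stress, and the same libraries were compared for the 8 members. After seizure, no member passed the test in any class. In 43 pairs of a class and a member, edgeR's quasi-likelihood test with Benjamini-Hochberg adjustment called 0, with 3 at an unadjusted p under 0.05 and 0 by DESeq2. Over all genes and classes the same rule called 0.278% of 51784 tests, and 2510 of them had an unadjusted p under 0.05 by edgeR. In neurons Scg2, the member of this family best known to be induced by activity, was at 316 and 329 CPM in the 2 seizure libraries, and at 230.2, 252, 262, 779 and 1193 CPM in the 5 naive libraries. The naive range enclosed both seizure values only through naive 4 and naive 5, at 779 and 1193 CPM from 95 and 10 neurons. Both lay above naive 1, naive 2 and naive 3. The log2 fold change was -0.24 (SE 0.30, edgeR adjusted p 0.999), and ran from -0.47 to 0.23 without each library in turn. Chgb was at 201 and 184 CPM in seizure neurons and at 182 to 681 CPM in naive neurons (log2 -0.38, SE 0.22). Pcsk1n was at 2433 and 2106 CPM in seizure and 1235 to 2120 CPM in naive neurons, with overlap (log2 0.34, SE 0.22), and Cpe at 7949 and 9361 CPM against 5622 to 8404 CPM (log2 0.31, SE 0.23). The other 4 members had log2 values between -0.21 and 0.11 in neurons with SEs of 0.21 to 0.31.

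After immobilization the count was also 0 of 43 by edgeR and 0 by DESeq2, with 1 at an unadjusted p under 0.05, against 0.782% of all tests called. Of the 51784 tests over all genes, 3490 had an unadjusted p under 0.05 by edgeR. In neurons Scg5 was at 139, 105, 193 and 108 CPM in the 4 immobilization libraries, against 145, 166, 142, 313 and 341 CPM in the naive libraries. The groups overlapped (log2 -0.40, SE 0.22, edgeR adjusted p 1.00). Scg2 was at 304, 249, 339 and 893 CPM in immobilization neurons and within the naive range in all 4. The high values of naive 4, naive 5 and immobilization 4 come from 95, 10 and 15 neurons.

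After odor exposure the count was 0 of 43 by edgeR and by DESeq2, with 5 at an unadjusted p under 0.05, against 0.253% of all tests. Of the 5, 3 were in neurons and negative. Over all genes and classes, 3215 of 51784 tests had an unadjusted p under 0.05 by edgeR. Pcsk2 was at 28.6, 22.9 and 31.4 CPM in odor neurons and at 45.5, 85.6, 47.0, 82.5 and 42.6 CPM in naive neurons. All 3 odor values lay below all 5 naive values, and the change, log2 -1.03 (SE 0.34), had an edgeR adjusted p of 0.339. The counts were low, with 17, 7 and 18 UMIs in the odor libraries. The naive 5 value was 1 UMI from 10 neurons, so the separation from that library rests on 1 count. Chga was at 53.8, 75.2 and 47.1 CPM in odor neurons against 75.9 to 128 CPM in naive neurons (log2 -0.57, SE 0.25, edgeR adjusted p 0.702), again without overlap. Chgb was at 190, 190 and 168 CPM against 182 to 681 CPM (log2 -0.48, SE 0.20, adjusted p 0.650 by edgeR), with overlap. The summed neuron markers of the odor libraries, 2157 to 3369 CPM, lay below the 3606 to 17462 CPM of the naive libraries, and their part in these values was not tested.

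Seizure set against immobilization gave 0 of 43 by edgeR and by DESeq2, with 1 at an unadjusted p under 0.05, against 0.122% of all tests. Of the 51784 tests over all genes, 2319 had an unadjusted p under 0.05 by edgeR. In neurons the 8 log2 values lay between -0.19 and 0.36. This comparison and the one of seizure with naive mice share the seizure libraries.

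The smallest adjusted p of these comparisons belonged to Pcsk1n in astrocytes. It was at 571 and 556 CPM after seizure, at 591, 448, 566 and 657 CPM after immobilization, and at 579, 530.0, 509 and 368 CPM after odor, against 504, 407, 413, 359 and 321 CPM in naive mice. Both seizure values lay above all naive ones, and the immobilization and odor groups overlapped the naive group. The log2 fold changes over naive were 0.48 (SE 0.15), 0.41 (SE 0.13) and 0.32 (SE 0.12), with edgeR adjusted p of 0.255, 0.0981 and 0.401. The value after immobilization passed the threshold without naive 1 (adjusted p 0.0317) and with no filter on low counts (0.0357). These 3 comparisons share the naive libraries. Scg2 in astrocytes was at 40.0 and 60.3 CPM after seizure against 16.9 to 40.4 CPM in naive mice (log2 0.75, SE 0.29, edgeR adjusted p 0.604), with overlap.

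**Figure D4:**
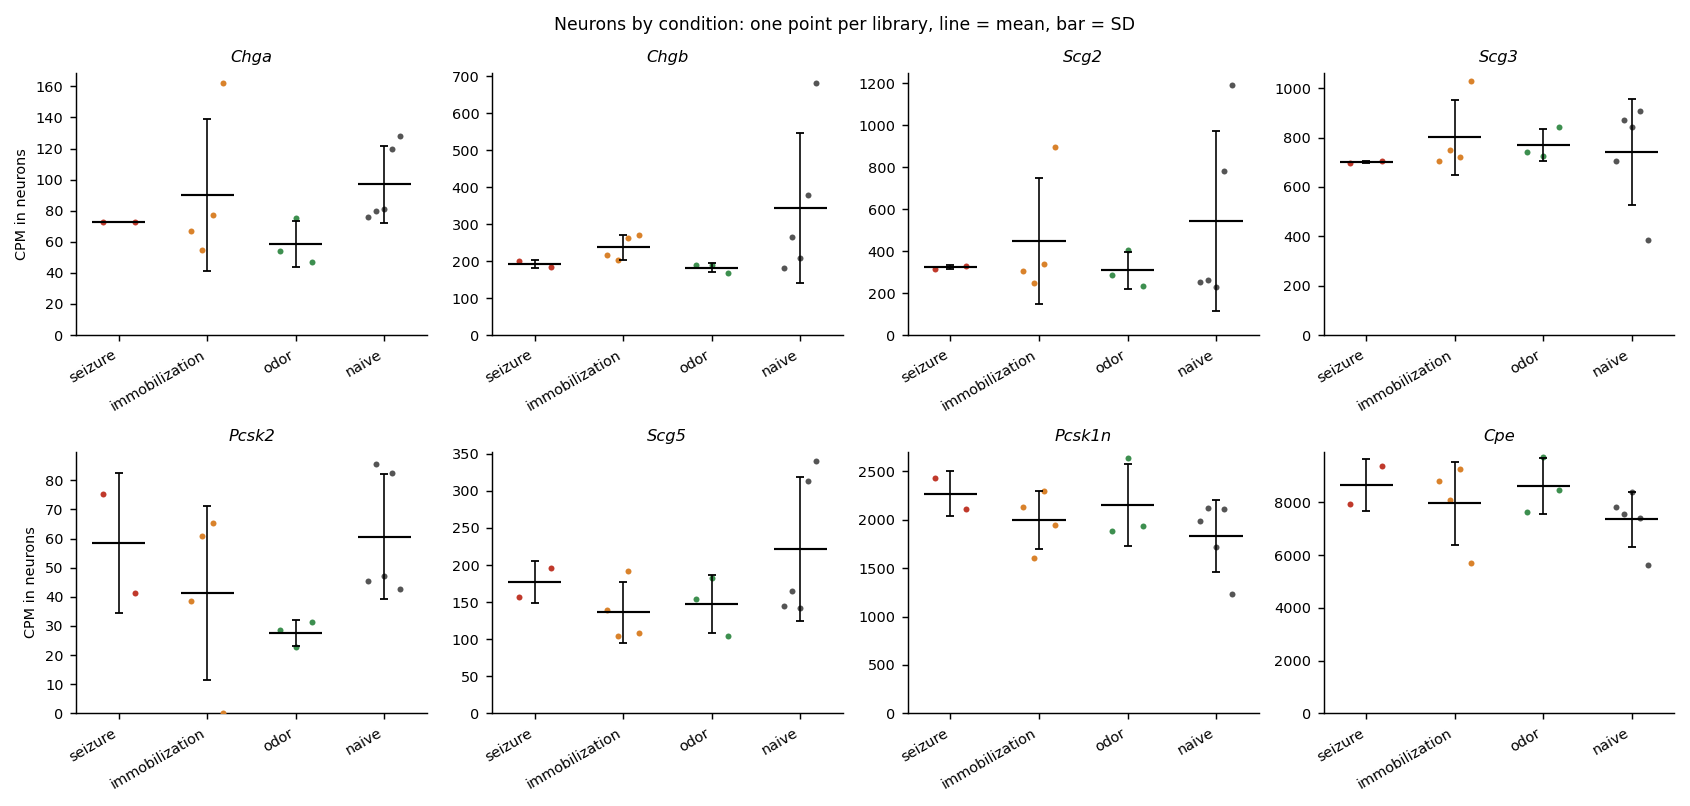
CPM of each member in neurons by condition, 1 point per Act-Seq library (2 seizure, 4 immobilization, 3 odor and 5 naive libraries), with the mean as a line and the SD as a bar. The naive Scg2 values reach from 230.2 to 1193 CPM and enclose those of the seizure libraries only through naive 4 and naive 5. The Pcsk2 values of odor libraries, 22.9 to 31.4 CPM, lie below all naive values, of which that of naive 5 is 1 UMI.

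The partners of these members in the secretory pathway gave no call. Of a list of 16 secretory partners (other convertases, trimming and amidating enzymes), 8 were tested in neurons and none was called in any class after seizure, immobilization or odor, nor between seizure and immobilization; the list's median log2 in neurons was -0.40 after seizure, -0.43 after immobilization and -0.43 after odor, beside -0.01 to 0.00 over all genes, and 2, 3 and 3 of the 8 had an unadjusted p under 0.05 by edgeR. Of all 8808 genes tested in neurons, 275, 394 and 570 had an unadjusted p under 0.05 by edgeR after seizure, immobilization and odor. Resp18, a regulated secretory protein, was at 310.0 and 357 CPM after seizure against 195 to 1266 CPM in naive neurons (log2 -0.50, SE 0.34), and Ctsl, a protease that can cut prohormones, at 201 and 210 CPM against 158 to 346 CPM (log2 -0.10, SE 0.21). Of 15 genes of the dense core vesicle machinery, 13 were tested in neurons and none was called by edgeR, with 0 of them at an unadjusted p under 0.05 after seizure and 2 after each of immobilization and odor. The list's median log2 was 0.15 after seizure, 0.02 after immobilization and -0.22 after odor. Single values after seizure were log2 -0.04 (SE 0.20) for Rab3a, a vesicle GTPase, and log2 -0.04 (SE 0.21) for Syt4, a vesicle synaptotagmin.

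Of 22 peptide precursors, 12 were tested in neurons, with median log2 values of 0.56 after seizure, -0.24 after immobilization and 0.18 after odor, and some of these cargoes were called. Over all classes edgeR called 2 higher and 1 lower of 35 tests after seizure, and 2 lower after each of immobilization and odor, beside 0.278%, 0.782% and 0.253% of the tests over all genes. Sst, the somatostatin precursor, was at 454 and 215 CPM after seizure, and at 139, 111, 153, 219 and 42.6 CPM in naive neurons; the log2 fold change was 1.27 (SE 0.26, edgeR adjusted p 0.0148), with overlap of the groups. Npy was at 161 and 31.0 CPM after seizure against 0 to 49.3 CPM in naive neurons (log2 1.63, SE 0.35, edgeR adjusted p 0.0246). Both calls were lost without seizure 1, where the log2 fold of Sst was 0.57 and that of Npy -0.15, and DESeq2 made neither; that of Sst was also lost without naive 1 and that of Npy without naive 5 or odor 1. Sst was also called between seizure and immobilization (log2 1.57, SE 0.28, edgeR adjusted p 0.00299), again not by DESeq2, nor without seizure 1, immobilization 1 or immobilization 2. Avp, the vasopressin precursor, gave 0 UMIs in all 4 immobilization libraries, 14 UMIs in 3 odor libraries and 7221 in 5 naive libraries, of which 6169 came from naive 4 and 1044 from naive 2. It was called lower in neurons after immobilization and odor (edgeR adjusted p 0.000233 and 0.00278) and, in the neuron class outside the clusters, in all 3 comparisons with naive, each lost without naive 2. In neurons the call after immobilization held without each of 14 libraries in turn and by DESeq2, and that after odor was lost without odor 1 or odor 3. DESeq2 did not make the call after odor in neurons, nor any of the 3 outside the clusters. No fold is given for a gene whose counts come from so few libraries.

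The dissociation table let the members be compared between protocols, 2 conventional libraries against 3 Act-Seq libraries, with seizure or saline as a term; 2 residual degrees of freedom remain. Its cells carry no author class, so they were clustered without the members and immediate early genes and named from markers. The neurons were those of 4 clusters, and the protocols filled these unequally. A cluster led by Sst and Slc32a1 had 313 saline and 221 seizure cells from conventional dissociation, against 9 saline and 8 and 7 seizure cells from Act-Seq. A cluster led by Miat had 1 and 1 conventional cells against 12 saline and 29 and 16 seizure cells from Act-Seq. Of 1175 cells of the seizure libraries in the authors' neuron class, 973 lay in an unnamed cluster led by Kif5a, and 74 in a cluster named neuron.

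Of 43 pairs of a class and a member, 6 passed (4 higher and 2 lower with conventional dissociation), against 2.67% of 41786 tests over all genes; DESeq2 called 5. In neurons Scg2 was at 3634 and 3130 CPM in the conventional libraries (seizure, saline), and at 900, 1600 and 1588 CPM in the Act-Seq libraries (seizure 1, seizure 2, saline). Both conventional values were higher than all 3 Act-Seq values, with a log2 fold change of 1.23 (SE 0.36, edgeR adjusted p 0.0188). Pcsk1n was at 4788 and 3197 CPM with conventional dissociation against 1824, 1153 and 1941 CPM with Act-Seq (log2 1.19, SE 0.36, edgeR adjusted p 0.0228). Scg5 was at 1720 and 1166 CPM with conventional dissociation against 672, 541 and 717 CPM with Act-Seq (log2 1.07, SE 0.32, edgeR adjusted p 0.0206). Higher calls made up 7.53% of the 2628 genes tested in neurons.

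Chgb, Pcsk2 and Chga also had both conventional values above the Act-Seq ones, with log2 0.83 (SE 0.33), 0.93 (SE 0.35) and 0.55 (SE 0.33), and did not pass (edgeR adjusted p 0.0741, 0.0635 and 0.231). Cpe lay the other way in neurons, at 1354 and 927 CPM with conventional dissociation against 1476, 1835 and 1974 CPM with Act-Seq (log2 -0.71, SE 0.34, edgeR adjusted p 0.14), and Scg3 overlapped. The 3 neuron calls depended on which cells were counted as neurons. Without the Miat-led cluster, an alternative chosen after seeing the data, none of the 3 passed (log2 0.85 for Scg2, 0.72 for Pcsk1n and 0.54 for Scg5, edgeR adjusted p 0.135, 0.249 and 0.353). With the cluster led by Kif5a added to the neurons, also chosen after seeing the data, 7 of 8 members passed. Scg2 (log2 3.13), Scg5 (2.87), Chgb (2.77), Chga (2.67) and Pcsk2 (2.49) were higher and Cpe (-2.84) and Scg3 (-1.17) lower. Pcsk1n had log2 0.51 (edgeR p 0.0431, adjusted p 0.0786). So small an adjustment means that a large part of all genes tested in that fit had low p-values. The share of all genes called is not given here, and the count is not read as particular to the members. Within the Kif5a-led cluster itself no member passed in the 34 seizure and 12 saline conventional cells against the 663 and 344 seizure and 720 saline Act-Seq cells, with Cpe at log2 -0.35 (SE 0.17) and Scg2 at -0.20 (SE 0.42). The median of all genes in that comparison was -0.35. In neurons the summed astrocyte markers were 329 and 364 CPM with conventional dissociation and 1012 to 1452 CPM with Act-Seq, and Meg3 was 26409 and 16532 CPM against 23596 to 55571 CPM; their part in these differences was not tested. Leaving out seizure_conventional 1 ended all 3 calls (log2 1.01 for Scg2, 0.75 for Pcsk1n and 0.73 for Scg5), as did leaving out seizure 1 (1.24, 1.52 and 1.31); leaving out seizure 2 ended those of Pcsk1n (1.16) and Scg5 (1.13).

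In glia 2 calls were in the other direction, Pcsk1n in astrocytes and Cpe in oligodendrocytes. Pcsk1n in astrocytes was at 315 and 219 CPM with conventional dissociation, and at 706, 644 and 774 CPM with Act-Seq. The conventional values lay far below (log2 -1.34, SE 0.16, edgeR adjusted p 5.14e-06), and lower calls made up 2.96% of the 9213 genes tested in astrocytes. Cpe in oligodendrocytes was at 149 and 209 CPM with conventional dissociation against 966, 858 and 868 CPM with Act-Seq (log2 -2.25, SE 0.19, edgeR adjusted p 4.28e-07), where lower calls made up 0.802% of 7104 genes. Both calls held without each library in turn, with log2 values of -1.71 to -1.04 for Pcsk1n and -2.54 to -1.92 for Cpe. Kif5a, the leading gene of the unnamed cluster in which Cpe was at 7304 to 11915 CPM, moved with them: it was at 138 to 217 CPM with conventional dissociation against 909 to 1079 CPM with Act-Seq in astrocytes, and at 23.0 to 45.0 CPM against 285 to 497 CPM in oligodendrocytes. The astrocyte markers summed in oligodendrocytes were 343 to 503 CPM against 1115 to 1581 CPM. Their part in the 2 results was not tested. Pcsk1n in oligodendrocytes was at 317 and 355 CPM against 641, 506 and 538 CPM (log2 -0.64, SE 0.18, edgeR adjusted p 0.107).

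Scg2 was called in endothelial cells. It was at 149 and 93.4 CPM with conventional dissociation and at 17.4, 10.5 and 5.19 CPM with Act-Seq, without overlap (log2 3.56, SE 0.55, edgeR adjusted p 0.0201), where higher calls made up 0.229% of 4365 genes. DESeq2 did not call it (log2 3.71, SE 1.02, DESeq2 adjusted p 0.116), and the call was lost without seizure_conventional 1 (adjusted p 0.586) or seizure 2 (0.152). The summed neuron markers of these endothelial cells moved with it, at 1896 and 1686 CPM with conventional dissociation against 500.3 to 744 CPM with Act-Seq, with 6 to 9 of the 10 markers seen in the Act-Seq and conventional libraries; their part was not tested. Cpe in endothelial cells ran lower, at 287 and 195 CPM against 407 to 1122 CPM (log2 -1.55, SE 0.40, edgeR adjusted p 0.268). Scg2 also had both conventional values above all Act-Seq values in microglia, mural cells and oligodendrocyte precursors, where no member was called. In microglia it was at 80.1 and 52.5 CPM against 29.4, 25.9 and 13.95 CPM. In precursors it was at 34.7 and 35.1 CPM against 10.2, 10.6 and 14.8 CPM. In astrocytes and oligodendrocytes the Scg2 values of the protocols overlapped.

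**Figure D5:**
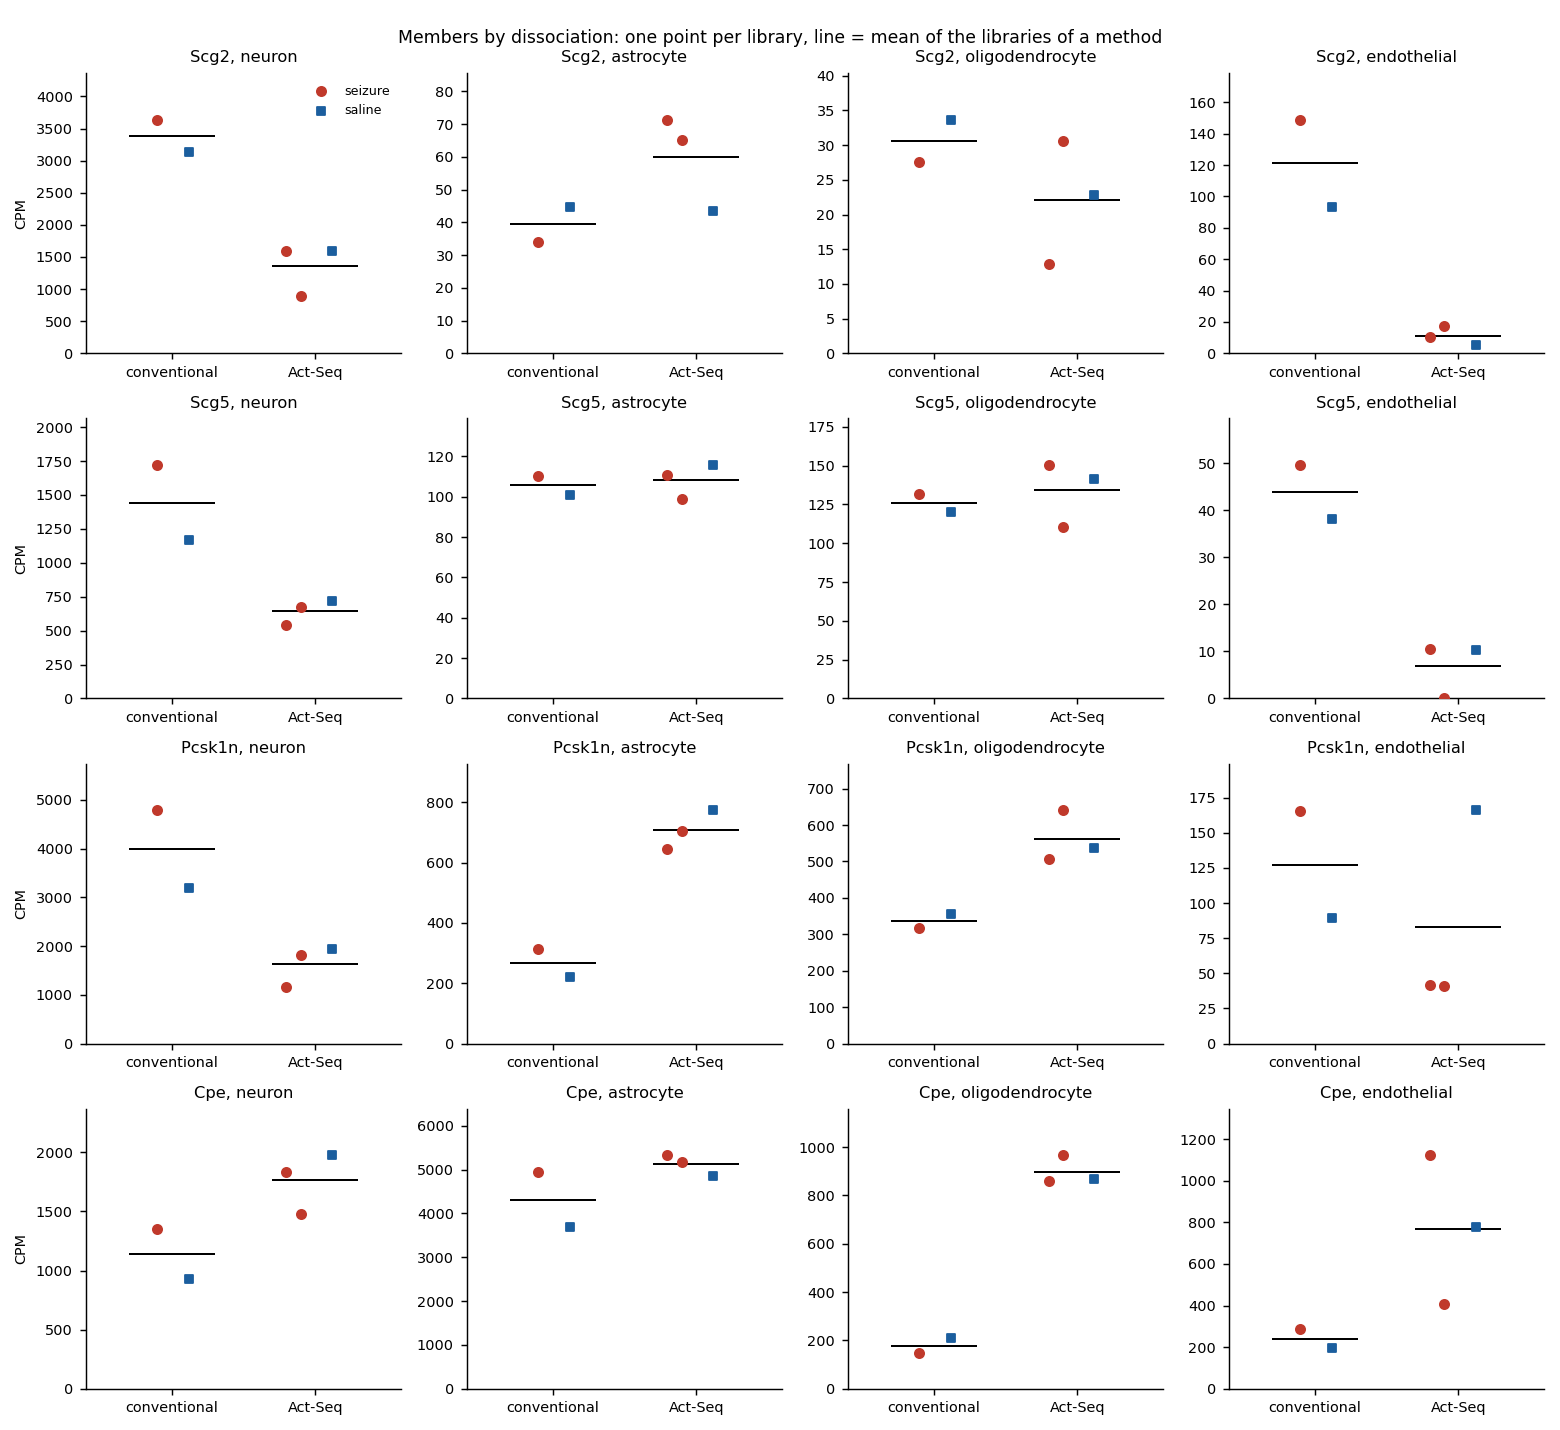
CPM of Scg2, Scg5, Pcsk1n and Cpe (rows) in neurons, astrocytes, oligodendrocytes and endothelial cells (columns) of the dissociation table, with conventional libraries left and Act-Seq libraries right, seizure as circles and saline as squares, and the mean as a line. Scg2 in neurons is at 3130 and 3634 CPM with conventional dissociation against 900 to 1600 CPM with Act-Seq, while Cpe in oligodendrocytes is at 149 and 209 CPM against 858 to 966 CPM.

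The lists gave calls in the same comparison, in which 7.53% of the genes tested in neurons were called higher and 11.6% lower. Among secretory partners in neurons Resp18 was higher (log2 1.15, SE 0.35) and Pcsk1 lower (log2 -1.71, SE 0.54) with conventional dissociation, 2 of 6 tested, and Resp18 was lower in astrocytes (log2 -1.22). Pcsk1 was at 48.3 and 54.5 CPM in conventional neurons against 320, 36.0 and 118 CPM with Act-Seq (saline first), with overlap. Without each library in turn the log2 of Pcsk1 ran from -2.69 to 0.13. In the vesicle machinery Rab3a was higher (log2 0.96) and Ptprn (-0.97) and Syt7 (-1.45) lower in neurons, 3 of 8 tested. Among cargoes in neurons, Cck (log2 2.34), Tac1 (2.28) and Penk (1.75) were higher, and Avp, with 449 and 0 UMIs in the conventional libraries against 3510, 0 and 532 in the Act-Seq libraries (saline first), was lower; 11 were tested. Cck and Tac1 kept their calls without each library in turn. Penk lost its own without seizure_conventional 1, and Resp18, Pcsk1, Rab3a, Ptprn and Syt7 lost theirs in 2 to 5 of 5 cases. DESeq2 did not call Pcsk1, Rab3a or Avp in neurons, nor Resp18 in astrocytes. In astrocytes Cartpt (log2 -3.999), Sst (-2.76), Cck (-1.45) and Avp were lower with conventional dissociation. Lower calls made up 2.96% of the 9213 genes tested in that class. Over all classes the cargo list gave 3 higher and 5 lower calls in 29 tests. Cartpt and Sst kept their astrocyte calls without each library in turn, Cck kept its own in 1 of 5 cases and Avp in 2 of 3. The astrocyte counts were low, with 1 UMI of Cartpt in each conventional library against 26, 52 and 28 with Act-Seq (saline first). The part of neuronal RNA in these astrocyte values was not tested.

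Seizure set against saline in the same table, with the protocol as a term, called 0 of 43 pairs by edgeR and by DESeq2, with 3 at an unadjusted p under 0.05, against 0.141% of all tests. Of the 41786 tests over all genes, 1912 had an unadjusted p under 0.05 by edgeR. In neurons the 8 log2 values lay between 0.00 and 0.56 with SEs of 0.32 to 0.38, and Pcsk2 was at 340 CPM (seizure) against 251 CPM (saline) with conventional dissociation. In microglia, of which 1 cluster was almost wholly conventional (175 and 113 cells against 2, 2 and 2), Cpe had log2 -0.91 (SE 0.28) and Pcsk1n -0.95 (SE 0.30), with edgeR adjusted p of 0.333 and 0.355. Of the lists, only Gal was called in neurons: 2 UMIs in the conventional and 0 in the Act-Seq seizure libraries, against 702 and 24 in the saline libraries, and the call was lost without saline_conventional 1 (edgeR adjusted p 0.145).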

How the data were processed

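The deposited values are raw counts of UMIs for each gene in each cell, not normalized. Per the submitters' processing notes, bcl2fastq 2.17.1.14, STAR 2.5.0a and mm10 were used; the counting tool and cell filters are not named there. Library, author class and neuron cluster were read from the cell names of the authors' tables. Members and lists were chosen with earlier results of these data known. All 8 members are named; list genes are named where called and otherwise the 2 of highest level in neurons.

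Counts were summed per library and class (at least 10 cells) and tested with edgeR 4.0.16 in R 4.3.3 (quasi-likelihood F-test, TMM scaling, filterByExpr), 1 fit per class over 4 Act-Seq groups with no covariate, and seizure plus method for the dissociation table. Benjamini-Hochberg adjustment ran within each class and contrast (threshold 0.05); SE is the log2 fold over the root of F. DESeq2 1.42.0 was an alternative. CPM is scaled to a library's UMIs in a class. The dissociation table was clustered (scanpy 1.11.5; leidenalg 0.10.2; resolution 0.8; 15 neighbours on 30 components of 2000 variable genes) without 38 genes (members and immediate early genes); doublets were not called there, and removing the 5% of cells with the highest UMI totals was tried in the table of all cells. Fits were tested on simulated counts. For seizure minus naive, a simulated log2 change of 1 was called in 49% of changed genes in neurons. The share was 47% in astrocytes and 35% in oligodendrocyte precursors. For a log2 change of 2 the shares were 85%, 87% and 80%. A count of 0 members therefore does not show that no member changed. For Scg3 and Pcsk2, 1 of the 3 most alike genes is not reported here.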

Additional observations from a re-analysis of the deposited data

Results flagged for a closer look

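In 88 groups of 4 or 5 libraries, 10 held a library far from the others by Dixon's test at the 95% level. Chance gives about 1 in 20. Some of these values rest on few UMIs, so the count of 10 is not read as an excess over chance. In neurons, immobilization 4, with 15 cells, had 893 CPM of Scg2 against 249 to 339 CPM in the other 3 immobilization libraries, and 1028 CPM of Scg3 against 706 to 749 CPM. In the neuron class outside the clusters, naive 5, with 28 cells, had 784 CPM of Scg2 against 219 to 312 CPM, and odor 3 had 103 CPM of Scg5 against 137 to 141 CPM. In oligodendrocyte precursors, naive 5, with 24 cells, had 79.7 CPM of Scg2 against 0 to 9.20 CPM, odor 1 had 213 CPM of Chgb against 78.0 to 86.7 CPM, immobilization 3 had 161 CPM of Pcsk2 against 60.02 to 70.2 CPM, and odor 3 had 190 CPM of Scg5 against 258 to 269.8 CPM. In astrocytes, immobilization 3 had 7.43 CPM of Chgb against 35.9 to 40.2 CPM, and naive 1 had 2.10 CPM of Pcsk2 against 5.42 to 5.94 CPM. That Pcsk2 value was 2 UMIs, against 4, 5, 3 and 1 UMIs in naive 2 to naive 5. The Scg2 value of naive 5 in precursors was 3 UMIs, against 0 or 1 in each of naive 1 to naive 4.

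Between conventional and Act-Seq dissociation, some members moved one way in every library of one class and the other way in every library of another; these differences between classes were not tested. Pcsk1n had log2 1.19 in neurons against -1.34 in astrocytes and -0.64 in oligodendrocytes. Chgb had log2 0.83 in neurons against -0.92 in astrocytes. Scg3 had log2 0.28 in astrocytes against -2.54 in endothelial cells. The endothelial value rests on 3 and 2 UMIs in the conventional libraries against 5, 8 and 22 with Act-Seq (seizure first). Neither Chgb nor Scg3 passed in either class, nor did Pcsk1n in oligodendrocytes.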

How the results depend on the processing

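The counts of 0 members after seizure, after odor and between seizure and immobilization stayed at 0 under every alternative run: RLE scaling, no filter, DESeq2, at least 20 cells, an age term, a replicate block (0), without libraries under 500 cells, without cells of the highest UMI totals, without each library in turn, without clusters N13 to N16 and with the whole neuron class. After immobilization the count was 0, and 1 (Pcsk1n in astrocytes) with no filter; without each library it ranged from 0 to 1 (the same call, without naive 1). Between conventional and Act-Seq dissociation the count of 6 became 12 with no filter, 10 at Leiden resolution 1.2, 10 with the Kif5a-led cluster among neurons and 3 without the Miat-led cluster, and ranged from 4 to 10 without each library (10 without saline_conventional 1). Between seizure and saline it was 0, and 1 (Cpe in microglia) with no filter; without each library it ranged from 0 to 1 (Cpe in microglia without saline 1, Pcsk1n in endothelial cells without seizure_conventional 1). Called member values reversed under no alternative run. In neurons and astrocytes, deviations of same-numbered libraries from their group means correlated at -0.08 to 0.17. Libraries of unlike numbers were not set beside them, so pairing was not decided by these values. The paired fit changed no count. Of 32 shares of cells with a UMI, 16 moved by more than 1 SD between libraries when cells were thinned to 400 UMIs, since fewer UMIs give lower shares. Members were tested in mural cells for Cpe only; low counts limit the endothelial, microglial and mural values.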
